A study of Mus musculus with 6 samples.

Results

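The Zfp genes are the mouse genes named zinc finger protein, and those with transcripts in liver are described here across a diet comparison. Members were the protein-coding genes whose symbol is Zfp followed by digits and whose mean was at least 1 CPM (a gene's counts as parts per 1000000 of its library's total) over the 6 libraries. Of 371 Zfp symbols in the table, 362 were protein coding, and 301 of these, of 20107 genes in all, met the minimum. Among the Zfp symbols the members were selected on their mean level over all 6 libraries, and the rule used no gene's own diet difference. The members were, however, chosen with earlier results of these data known. Comparisons of the members with all tested genes therefore describe the set and are not an independent test of it. The mean level of the members ran from 1.05 to 147 CPM with a median of 6.68, and it is given as a description. Just above the minimum stood Zfp78 at 1.05, Zfp712 at 1.09 and Zfp462 at 1.11 CPM, and just below it Zfp651 at 0.960, Zfp456 at 0.958 and Zfp708 at 0.955 CPM. In 4 members the mean was below 1 CPM in a single diet, 3 of them in HFHC and 1 in Chow, and none of the 4 was called. All 301 members passed the filter on low counts and were tested among 14896 genes.

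The libraries were made from rRNA-depleted total RNA of livers of wild-type C57BL/6N (Envigo) male mice, which the design text calls littermates, all sampled at 16 weeks of age. From 8 weeks of age, and for 8 weeks, 3 mice had chow (replicates 7, 8 and 9) and 3 had the HFHC diet (replicates 1, 2 and 3), a high-fat, high-calorie food with fructose and a drink high in fructose, both taken freely. No agent, transgene or deletion separates the groups, and the labels give no batch or litter. The comparison addresses how the HFHC diet changes expression in the liver. Log2 fold changes are HFHC over Chow with a standard error (SE), levels are CPM scaled by edgeR's TMM factors, and a gene was called at an adjusted p under 0.05 over all tested genes.

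Most Zfp proteins carry tandem C2H2 zinc fingers, in which 2 cysteines and 2 histidines hold a zinc ion and a short helix reads bases of DNA. A large share of them also has a KRAB box at the amino-terminal end, which binds TRIM28 (KAP1). TRIM28 in turn brings SETDB1, the enzyme that methylates histone H3 at lysine 9, to silence retroelements and imprinted loci. The Zfp36 proteins differ, since their CCCH fingers bind AU-rich elements of mRNAs and recruit the deadenylating machinery.

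The finger modules are printed because they define the genes. Each is the genomic coding strand, 5′ to 3′, in the GENCODE M21 annotation of mm10, with the codons of the zinc-binding residues in capitals. The module of Zfp715, a KRAB gene, lies at chr7:43299401-43299463 on the minus strand in exon 4 of 4. The module of Zfp281, a C2H2 gene without a KRAB box, lies at chr1:136626063-136626125 on the plus strand in exon 2 of 2. The module of Zfp36, of the CCCH kind, lies at chr7:28378158-28378217 on the minus strand in exon 2 of 2.
Zfp715: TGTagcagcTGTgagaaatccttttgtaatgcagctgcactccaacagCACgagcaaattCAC
Zfp281: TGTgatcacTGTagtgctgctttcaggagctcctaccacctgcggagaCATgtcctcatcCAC
Zfp36: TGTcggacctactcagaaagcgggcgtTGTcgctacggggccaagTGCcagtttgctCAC

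The promoters shown belong to 3 of the 4 members that were called in every alternative fit of the whole table, and the fourth, Zfp992, had no entry in the table of RefSeq promoters (GRCm38.p6) used here. Each runs from 250 bases before to 50 bases after the RefSeq start, 5′ to 3′ on the gene's strand, with GC boxes (GGGCGG on either strand) in capitals. The Zfp715 window is chr7:43313251-43313550 on the minus strand, with 1 GC box and 13 CpG. The Zfp281 window is chr1:136624651-136624950 on the plus strand, with 4 GC boxes and 27 CpG. The Zfp644 window is chr5:106696781-106697080 on the minus strand, with 2 GC boxes and 10 CpG, and its start lies 457 bases inside the GENCODE gene.
Zfp715: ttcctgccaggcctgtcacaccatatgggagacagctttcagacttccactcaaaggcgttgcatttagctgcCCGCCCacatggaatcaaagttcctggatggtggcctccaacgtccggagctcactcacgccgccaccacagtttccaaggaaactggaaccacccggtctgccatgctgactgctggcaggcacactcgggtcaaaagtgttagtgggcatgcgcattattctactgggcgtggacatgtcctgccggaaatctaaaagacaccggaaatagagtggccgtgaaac
Zfp281: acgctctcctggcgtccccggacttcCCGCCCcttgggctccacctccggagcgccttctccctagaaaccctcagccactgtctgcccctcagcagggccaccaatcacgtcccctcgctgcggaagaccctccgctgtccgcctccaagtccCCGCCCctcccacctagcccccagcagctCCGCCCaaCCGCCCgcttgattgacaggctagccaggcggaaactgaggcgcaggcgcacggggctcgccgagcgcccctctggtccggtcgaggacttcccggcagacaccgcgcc
Zfp644: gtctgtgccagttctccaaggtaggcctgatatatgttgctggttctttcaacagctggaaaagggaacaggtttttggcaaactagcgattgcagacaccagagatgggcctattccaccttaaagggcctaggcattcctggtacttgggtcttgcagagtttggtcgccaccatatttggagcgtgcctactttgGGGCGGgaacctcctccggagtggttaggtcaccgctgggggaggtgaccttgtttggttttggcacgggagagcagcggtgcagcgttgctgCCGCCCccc

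RefSeq promoters were matched for 251 of the 301 members, and their shares were set beside those of 9173 protein-coding genes of at least 1 CPM. The GC box occurred in 45.0% of the member promoters, in 37.1% of the 151 with a KRAB box and in 64.4% of all. An ETS core (CCGGAAG, either strand) occurred in 23.5% of the members and 19.0% of all. A YY1 core (AAGATGG, either strand) occurred in 7.57% and 7.51%, and a TATA box (TATAAA, either strand) in 5.58% and 7.18%. Median GC content was 54.3% in the member promoters and 60.7% in all, with medians of 14 and 21 CpG. Among the 17 called members with an entry, 8 (47.1%) held a GC box, 3 (17.6%) a YY1 core and none a TATA box. Such matches are letters in these windows, not sites, and matches to different motifs may overlap.

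Library totals were 30096378 to 30871262 counts in HFHC and 26767415 to 27339613 in Chow. On principal components of all tested genes the first (46.6% of variance) separated the diets and the second (16.6%) set Chow replicate 8 apart. Summed hepatocyte markers ran from 87144 to 89982 CPM in HFHC and from 81979 to 102190 in Chow, so the liver label holds. Summed Kupffer cell markers (8 of 8 in the table) ran from 256 to 307 CPM in HFHC and from 214 to 255 in Chow, and summed B cell markers (5 of 5) from 14.7 to 21.8 and from 7.16 to 9.87. Stellate, sinusoidal endothelial, cholangiocyte, T and NK cell, neutrophil and erythroid sums overlapped between the diets. Of the single markers, Ighm (B cell), Hba-a1 (erythroid) and Cfd (the only adipocyte marker in the table, of 4 listed) were called higher, and Apob, Cps1 and Tat (hepatocyte) lower. In bulk liver, fewer cells of a type and less RNA per cell cannot be told apart, and the part of these markers in the Zfp results was not tested.

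Several Zfp genes were called lower in HFHC liver and none was called higher. By the quasi-likelihood test of edgeR, with p values adjusted after Benjamini and Hochberg, 21 of the 301 members were called lower and none higher. The share called lower was 6.98%, against 3.3% of all tested genes, while 3.38% of all tested genes were called higher. At an unadjusted p under 0.05, 74 members (24.6%) were lower and 6 (1.99%) higher, against 11.5% and 10.8% of all tested genes, and DESeq2 also called no member higher. The other 280 members were not called.

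Negative values were also common among members that were not called. Over all 301, log2 fold changes had a median of -0.16, with quartiles of -0.29 and -0.01 and a range from -1.19 to 0.78. Over all tested genes the median was -0.00 with quartiles of -0.16 and 0.16. A negative value was found in 231 members (76.7%) and in 50.5% of all tested genes. Every HFHC library lay below every Chow library in 82 members (27.2%), against 14.3% of all tested genes. Every HFHC library lay above every Chow library in 6 members (1.99%), against 13.5%.

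The summed level of the 301 members was 3596, 3602 and 3469 CPM in HFHC replicates 1, 2 and 3, and 4069, 4039 and 4006 CPM in Chow replicates 7, 8 and 9. The 3 HFHC libraries were the 3 lowest, and Chow replicate 8 did not stand apart on this measure. The means were 3556 ± 75.2 and 4038 ± 31.5 CPM (SD, n = 3 each).

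**Figure D1:**
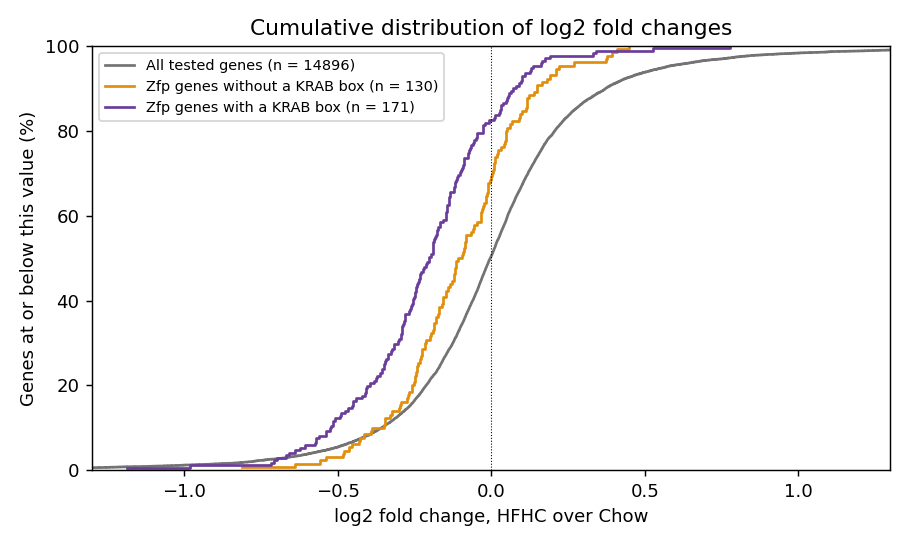
Cumulative distribution of log2 fold changes (HFHC over Chow, horizontal axis) as the percent of genes at or below each value (vertical axis), for all 14896 tested genes, 130 Zfp genes without a KRAB box and 171 with one. Both Zfp curves lie left of the curve of all genes around 0, where 76.7% of the 301 members are negative.

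The size of the called changes was modest. The 21 called members had log2 fold changes from -1.19 to -0.29, 9 of them were at least 1.5-fold lower (1.49% of all tested genes were) and only Zfp791 was at least 2-fold lower. In all 21, no HFHC library reached the lowest Chow library. This separation rests on the same 6 libraries as the calls, so it adds no further support to them. Levels ranged widely among them, with Zfp791 the lowest in CPM and Zfp871 the highest. Per kb of exonic length, Zfp30 was the lowest at 0.572 CPM and Zfp871 the highest at 9.31.

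**Figure D2:**
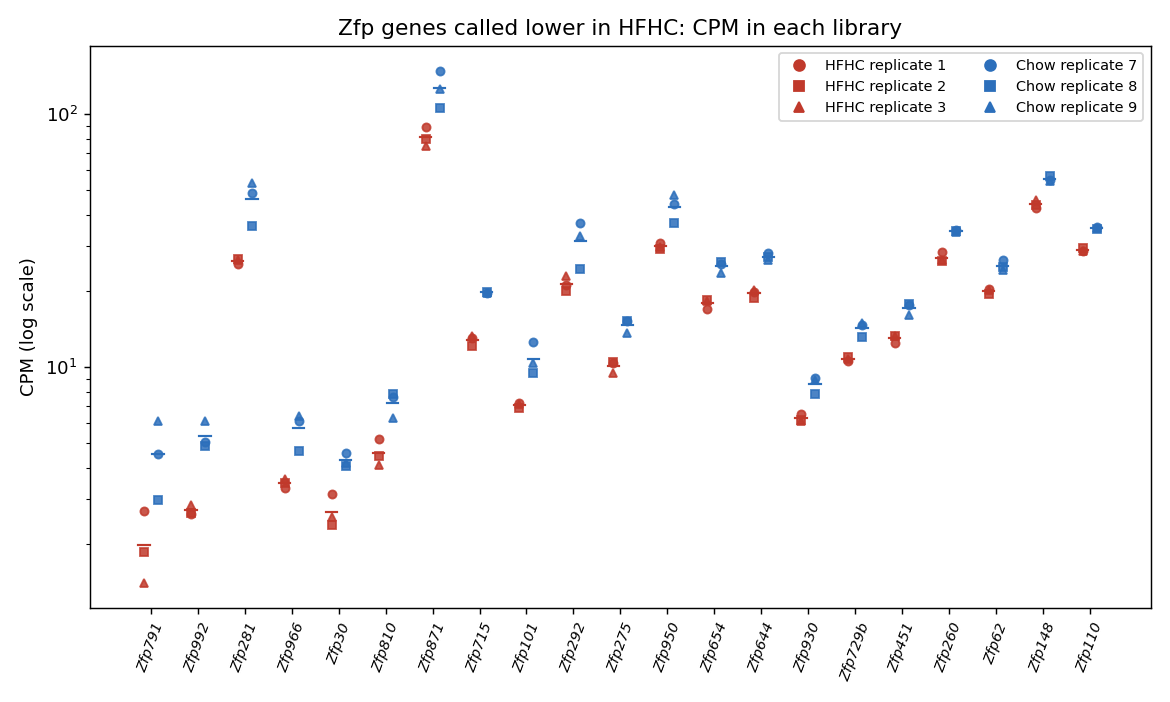
CPM (log axis) in each library for the 21 called Zfp genes, ordered by fold change, with HFHC libraries in red, Chow libraries in blue, marker shapes for replicates and a short line for each group's mean. No HFHC point reaches the lowest Chow point of its gene, and means run from 1.99 and 4.55 CPM in Zfp791 to 81.2 and 126 CPM in Zfp871.

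The 2 members with the smallest p were KRAB genes, ahead of 4 C2H2 genes without a KRAB box. Zfp715 (ENSMUSG00000012640.16, chr7:43296197-43313294, minus strand), which encodes a KRAB protein with 19 C2H2 motifs, stood at 13.01, 12.1 and 13.3 CPM in HFHC and at 19.7, 19.8 and 19.6 in Chow. The Chow libraries were almost level and all HFHC libraries lay well below them. Its means were 12.8 ± 0.598 and 19.7 ± 0.102 CPM (SD, n = 3 each), 35.1% lower by the fitted fold, with a log2 fold change of -0.62 ± 0.08 (SE) and an adjusted p of 0.00392. Zfp992 (chr4:146449023-146470292, plus strand), a KRAB gene with 11 C2H2 motifs, stood at 2.64, 2.66 and 2.85 CPM in HFHC and 5.05, 4.90 and 6.15 in Chow. Again the groups did not overlap, and Chow replicate 9 was the highest. The log2 fold change was -0.98 ± 0.15 with an adjusted p of 0.00589, though its counts were not whole in any library, so its own level is uncertain.

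Zfp871 was the most abundant called member. This KRAB gene (chr17:32765496-32788287, minus strand, 15 C2H2 motifs) had 88.6, 79.9 and 75.1 CPM in HFHC and 147, 106 and 126 in Chow. Chow replicate 8 was the lowest of its group, still above all HFHC libraries. The log2 fold change was -0.64 ± 0.12 and the adjusted p 0.0167. The call was lost without HFHC replicate 2 (adjusted p = 0.0556), HFHC replicate 3 (0.0558), Chow replicate 7 (0.057) or Chow replicate 9 (0.0507).

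Further KRAB genes followed. Zfp950 (chr19:61053840-61140840) had 30.9, 29.4 and 29.8 CPM in HFHC and 43.9, 37.0 and 47.8 in Chow, a log2 fold change of -0.52 ± 0.10 with an adjusted p of 0.0180. Zfp101 (chr17:33360507-33394641) had 7.22, 6.88 and 7.14 CPM in HFHC and 12.5, 9.47 and 10.4 in Chow, a log2 fold change of -0.61 ± 0.12 with an adjusted p of 0.0215. Zfp966 (chr2:175918881-175931100), whose values were not whole in any library, had 3.34, 3.49 and 3.62 CPM in HFHC and 6.11, 4.68 and 6.41 in Chow, a log2 fold change of -0.72 ± 0.15 with an adjusted p of 0.0251. In all 3 the HFHC libraries were close together and the Chow libraries spread. The calls depended on single libraries, and without Chow replicate 7 the adjusted p was 0.0758 for Zfp950, 0.082 for Zfp101 and 0.0994 for Zfp966. Without Chow replicate 9 it was 0.069, 0.0575 and 0.0938, without HFHC replicate 1 0.0508, 0.0658 and 0.0831, and without HFHC replicate 2 0.0589, 0.0687 and 0.0735. Without HFHC replicate 3 it was 0.0526 for Zfp101 and 0.0558 for Zfp966.

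Among C2H2 genes without a KRAB box, Zfp281 had the largest change of those called. Zfp281 (chr1:136624901-136630053, plus strand) encodes a transcription factor with 3 C2H2 motifs that binds GC-rich promoters. It stood at 25.4, 26.8 and 26.4 CPM in HFHC and at 48.7, 36.1 and 53.2 in Chow. The HFHC libraries were tight, and Chow replicate 8 lay between them and the other Chow libraries. The means were 26.2 ± 0.681 and 46.0 ± 8.86 CPM (SD, n = 3 each), a log2 fold change of -0.81 ± 0.13 with an adjusted p of 0.00829. Its paralog Zfp148 (chr16:33380836-33504363, plus strand) had 42.6, 43.8 and 45.9 CPM in HFHC and 54.6, 56.9 and 54.2 in Chow, a log2 fold change of -0.32 ± 0.07 with an adjusted p of 0.0302. The Zfp148 groups did not overlap, but after correction for GC content and length its adjusted p was 0.077, and leaving out any library other than HFHC replicate 3 also ended the call (0.0378 to 0.12 over the 6).

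Zfp644 encodes a partner of the G9a and GLP enzymes, which methylate histone H3 at lysine 9. Zfp644 (chr5:106616739-106697287, minus strand, 8 C2H2 motifs) had 19.8, 18.7 and 20.2 CPM in HFHC and 28.2, 27.2 and 26.4 in Chow. Both groups were tight and apart. The log2 fold change was -0.48 ± 0.08 with an adjusted p of 0.00915.

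Zfp654 (chr16:64780347-64851652) had 16.99, 18.5 and 18.2 CPM in HFHC and 25.5, 25.9 and 23.6 in Chow, with a log2 fold change of -0.48 ± 0.08 and an adjusted p of 0.0119. Its transcripts have a GC content of 35.7%, near the lowest of the members. After correction for GC content and length its log2 fold change was -0.22 and its adjusted p 0.136, and without HFHC replicate 1 or Chow replicate 7 the adjusted p was 0.0564 and 0.0552. Zfp275 (chrX:73342621-73359080) had 10.3, 10.5 and 9.49 CPM in HFHC and 15.3, 15.2 and 13.7 in Chow, with a log2 fold change of -0.54 ± 0.10 and an adjusted p of 0.0128. The Zfp275 groups lay apart, and leaving out Chow replicate 7 ended its call (adjusted p = 0.057).

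The remaining 10 called members, named here after their values were seen, had adjusted p values from 0.0261 to 0.0486. They were Zfp260, Zfp810, Zfp451, Zfp729b, Zfp30, Zfp110, Zfp930, Zfp62, Zfp791 and Zfp292. Zfp110, also known as Nrif, a protein that interacts with the neurotrophin receptor p75, was tight in both diets at 28.7, 29.5 and 28.9 CPM in HFHC and 35.9, 35.3 and 35.6 in Chow. That was the smallest called change, with a log2 fold change of -0.29 ± 0.07 and an adjusted p of 0.0395. The Zfp110 call was lost with each of the 6 libraries left out (0.0659 to 0.148) and with DESeq2 (0.0698), upper-quartile factors (0.0572) or no count filter (0.066). Zfp451, which encodes a SUMO ligase, had 12.5, 13.3 and 13.3 CPM in HFHC and 17.5, 17.8 and 16.0 in Chow, and a log2 fold change of -0.39 ± 0.09. This call too was lost with each library left out (adjusted p of 0.0575 to 0.129) and after correction for GC content and length (0.0618). The Zfp62 call was also lost with each library left out (0.0678 to 0.166) and after that correction (0.115). DESeq2 (0.0621), upper-quartile factors (0.0621) and no count filter (0.0615) ended it as well. Of the 6 fits with a library left out, Zfp260, Zfp729b, Zfp30, Zfp930 and Zfp292 were called in 1 each and Zfp810 in 2. Zfp791 had 2.704, 1.86 and 1.41 CPM in HFHC and 4.55, 2.97 and 6.11 in Chow. Its log2 fold change of -1.19 ± 0.30 was the largest of all members, with a wide spread in Chow. It was not called by limma-voom (adjusted p = 0.0589), without HFHC replicate 2 (0.125) or 3 (0.123), or without Chow replicate 7 (0.127) or 9 (0.147). Zfp729b shared 40.7% of its exonic bases with another gene on its strand and had no whole value, so its level is uncertain.

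Many of the calls rested on all 6 libraries. Leaving out a library gave 10 called members without HFHC replicate 1, 6 without HFHC replicate 2 and 11 without HFHC replicate 3. It gave 4 without Chow replicate 7, 21 without Chow replicate 8 and 7 without Chow replicate 9. The 21 without Chow replicate 8 were 15 of the 21 called with all libraries and 6 new members. Without HFHC replicate 3, 8 kept their call and 3 were new, and without HFHC replicate 1, 9 kept it and 1 was new. The share of all tested genes called lower was then 1.42%, 1.51% and 2.02% without HFHC replicates 1, 2 and 3, and 1.01%, 3.63% and 1.28% without Chow replicates 7, 8 and 9. Zfp715, Zfp992, Zfp281 and Zfp644 were called in each of the 6, and members that lost their call had adjusted p values from 0.0507 to 0.167. No member was called higher in any of them. With all libraries, DESeq2 called 20 members lower (4.17% of its genes) and limma-voom with sample weights 34 (5.3%). The 20 held 18 of the 21 members called by edgeR, and the 34 held all 21. In edgeR, 17 were called with upper-quartile factors (2.69%), 18 without a count filter (2.13%) and 21 with a minimum count of 30 (3.73%).

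The called members came from both large C2H2 classes. Of 171 members with a KRAB box 12 were called lower (7.02%) and none higher. Their median log2 fold change was -0.20, and 141 were negative. Of 122 C2H2 members without one 9 were called lower (7.38%) and none higher, with a median of -0.12, and 86 were negative. Over all tested genes 3.3% were called lower and 50.5% were negative. None of the 3 CCCH members or of the 5 with neither pattern was called, with medians of 0.06 and -0.02. The KRAB members together held 1379, 1324 and 1415 CPM in HFHC and 1693, 1572 and 1669 in Chow, so the diets were apart. Those without a KRAB box held 2217, 2278 and 2054 CPM in HFHC and 2376, 2467 and 2337 in Chow, also apart but by a smaller share. The difference between the classes was not tested.

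By number of fingers, the members with few C2H2 motifs were nearest to no difference. The median was -0.04 for 24 members with 0 to 2 motifs and -0.06 for 59 with 3 to 7. It was -0.22 for 114 members with 8 to 12 motifs, -0.15 for 69 with 13 to 17 and -0.21 for 35 with 18 or more. The median GC content of the transcripts also differed, at 51.6%, 48.6%, 45.2%, 44.0% and 43.7% in the same order. The parts of motif number and GC content were not tested. By level, 10 of 43 members of at least 20 CPM were called lower (23.3%, median -0.24), as were 5.50% of all 5602 tested genes at that level. Between 5 and 20 CPM 7 of 144 members were called lower (4.86%, median -0.14), against 2.46% of all genes at that level. Below 5 CPM 4 of 114 were called lower (3.51%, median -0.15), against 1.89%. Negative values were found in 37, 115 and 79 members of these 3 classes.

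The transcripts of the members are poor in G and C, and this moved with the result. Their median GC content was 46.0%, against 50.1% over all tested genes, and 43.3% in the KRAB members. Among all tested genes with at most 43% GC, 125 of 1899 (6.58%) were called lower and 31 higher, with a median of -0.11. The 99 Zfp genes in that class had a median of -0.25, with 9 (9.09%) called lower and 92 negative. Between 43 and 49% GC the medians were -0.04 for all 4581 genes and -0.16 for 90 Zfp genes, with 200 of all genes (4.37%) and 9 of the Zfp genes (10%) called lower. Above 49% they were 0.04 for all 8386 genes and -0.03 for 112 Zfp genes. There 165 of all genes (1.97%) and 3 of the Zfp genes (2.68%) were called lower, shares close to each other, and the 3 were Zfp715, Zfp30 and Zfp110.

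In each of the 3 GC classes the Zfp median lay below that of all genes, with or without a KRAB box. At 43% GC or less it was -0.26 for 84 KRAB members and -0.25 for 15 others, and from 43 to 49% it was -0.16 for 56 and -0.15 for 34. Above 49% it was -0.09 for 31 KRAB members and -0.03 for 81 others. The GC pattern was not equal across libraries: the median deviation of all genes with at most 43% GC from their own mean was -0.10 and -0.08 in HFHC replicates 1 and 2, but 0.02 in HFHC replicate 3. It was 0.08, 0.01 and 0.09 in Chow replicates 7, 8 and 9. For the Zfp genes of that class the deviations were -0.15, -0.15 and -0.04 in HFHC and 0.17, 0.03 and 0.15 in Chow, where the diets did not overlap. For the 112 Zfp genes above 49% GC they were 0.03, 0.05 and -0.16 in HFHC and 0.03, 0.13 and -0.05 in Chow, where the diets overlapped.

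To correct for this, a trend on GC content and transcript length was fitted in every library and removed. After it, 15 members were called lower and none higher, against 3.07% of all tested genes called lower. The median of the members was then -0.11 and that of all genes -0.01. Of the 21 called members 12 kept their call, Zfp169, Zfp385a and Zfp395 were new, and the 9 that lost it had adjusted p values from 0.0539 to 0.236. Among the 9, the log2 fold change moved little in Zfp791 (-1.19 to -1.15), Zfp451 (-0.39 to -0.35) and Zfp260 (-0.35 to -0.29). It moved more in Zfp654 (-0.48 to -0.22), Zfp729b (-0.41 to -0.20) and Zfp292 (-0.56 to -0.31). Zfp148 (-0.24 after the step), Zfp930 (-0.36) and Zfp62 (-0.25) lay between these. The median was -0.12 in the 171 KRAB members and -0.10 in the 130 others, closer together than without this step. The source of the GC trend was not tested.

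**Figure D3:**
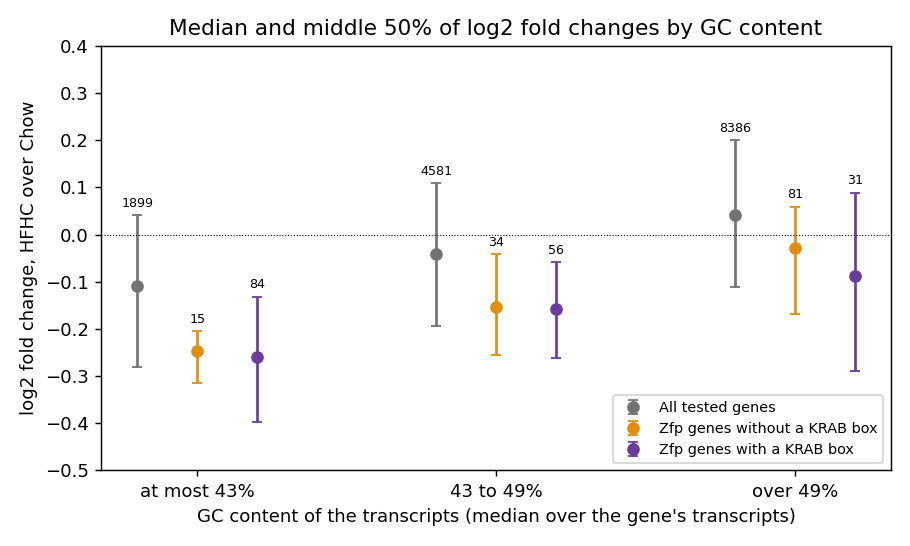
Median log2 fold change (HFHC over Chow, points) with the middle 50% of genes (bars) in 3 classes of transcript GC content, for all tested genes and for Zfp genes without and with a KRAB box, with the number of genes above each bar. All 3 sets move up with GC content, and both Zfp sets lie below all genes in each class.

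Zfp genes lie in clusters formed by repeated duplication, and 71 of the members were on chromosome 7, 41 on chromosome 17, 27 on chromosome 13 and 22 on chromosome 2. Joining members less than 1 Mb apart gave 17 runs of at least 5, which held 153 members. The median was negative in 14 runs and positive in 3, and 10 of the 153 members in the 17 runs were called. The 93 members with no other member within that distance had a median of -0.14, so members outside runs were low as well. Of these 93 members 9 were called, and of 55 members in smaller groups of 2 to 4, 2 were called. Over all tested genes 3.3% were called lower. Zfp genes below 1 CPM were not counted as neighbours.

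The 3 lowest runs held KRAB genes only, as did the runs Zfp930 to Zfp866, Zfp712 to Zfp273 and Zfp317 to Zfp846. Medians of the latter were -0.24, -0.20 and -0.13. In the 3 lowest runs, from the lowest up, median GC contents were 37.5%, 38.4% and 42.7%. The run from Zfp992 to Zfp933 (chr4:146449023-147848366, 5 members) had a median of -0.52 with Zfp992 called. The run from Zfp968 to Zfp931 (chr2:175372436-178078476, 8 members) had a median of -0.46 with Zfp966 called. In these runs 3 of 5 and 7 of 8 members had no whole value, and since near-identical copies can share reads, their separate levels are uncertain. The run from Zfp788 to Zfp719 (chr7:41633203-43593235, 7 members) had a median of -0.32 with Zfp715 called and all 7 negative.

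Of all 17, 4 runs held more than 10 members. The run from Zfp160 to Zfp213 (chr17:21008903-23564238, 20 members) had a median of -0.22, 17 negative and none called. In the run from Zfp712 to Zfp273 (chr13:67038596-67827002), 18 KRAB genes had a median of -0.20, 16 were negative and Zfp729b was called. The run from Zfp871 to Zfp414 (chr17:32765496-33631779, 12 members) had a median of -0.14 with Zfp871 and Zfp101 called. The run from Zfp84 to Zfp146 (chr7:29768552-30169750, 11 members) had a median of -0.12 with Zfp30 and Zfp260 called. The 3 runs with a positive median were Zfp551 to Zfp446 (0.13, 7 members), Zfp398 to Zfp775 (0.07, 8 members) and Zfp553 to Zfp646 (0.02, 10 members). The last 2 had median GC contents of 55.3% and 57.7%. Zfp110 was called lower inside the first of them.

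**Figure D4:**
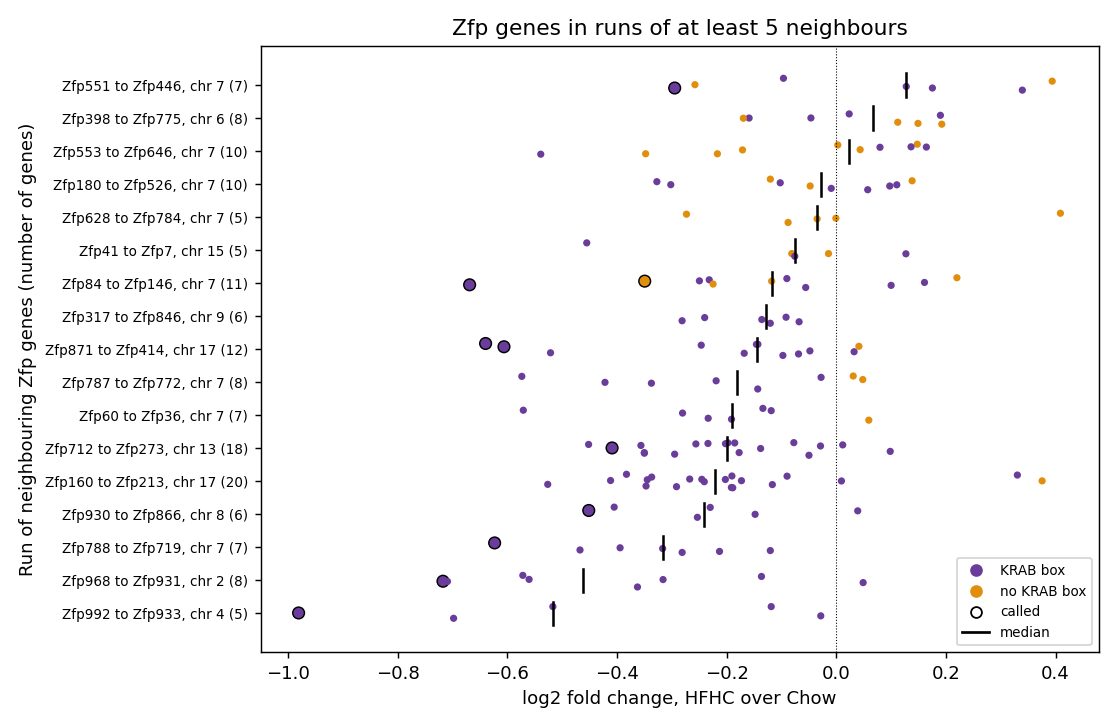
Log2 fold change (HFHC over Chow, horizontal axis) of each Zfp gene in 17 runs of at least 5 neighbours less than 1 Mb apart, with the run's median as a bar, KRAB genes in purple, others in orange and called genes as large outlined points. Medians run from -0.52 in Zfp992 to Zfp933 to 0.13 in Zfp551 to Zfp446.

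The CCCH genes did not pass the test in either direction. Zfp36 (tristetraprolin) had 122, 147 and 112 CPM in HFHC and 104, 128 and 135 in Chow, a log2 fold change of 0.06 ± 0.13 with an adjusted p of 0.834. Zfp36l1 had 140, 135 and 106 CPM in HFHC and 121, 129 and 87.1 in Chow, a log2 fold change of 0.18 ± 0.15 with an adjusted p of 0.551, and 55.9% of its exonic bases lie opposite another gene. Zfp36l2 had 42.4, 55.1 and 41.95 CPM in HFHC and 44.8, 51.3 and 38.5 in Chow, a log2 fold change of 0.05 ± 0.13 with an adjusted p of 0.863. In all 3 the diets overlapped. Per kb of exonic length, Zfp36l1 at 40.2 and Zfp36 at 35.9 CPM were the most abundant members, ahead of Zfp445 at 19.8, against a member median of 1.504.

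Of the partners of the CCCH proteins, 24 genes of the CCR4-NOT complex and AU-rich mRNA decay were tested, with 1 called higher (4.17%, against 3.38% of all tested genes), 2 lower (8.33%, against 3.3%), 21 not called and a median of -0.11. Btg2, which links mRNAs to the CCR4-NOT deadenylases, rose from 8.69, 7.65 and 8.64 CPM in Chow to 11.4, 12.2 and 13.3 in HFHC. Its log2 fold change was 0.56 ± 0.11 with an adjusted p of 0.0166, and 0.0522 without Chow replicate 7. Xrn1, the 5′ to 3′ exonuclease, fell from 30.8, 28.4 and 30.1 CPM to 20.4, 22.6 and 21.5, a log2 fold change of -0.47 ± 0.08 with an adjusted p of 0.0112. That p was 0.0571 without Chow replicate 7 and 0.0506 without Chow replicate 9. Cnot6l, a deadenylase, had a log2 fold change of -0.36 ± 0.08 with an adjusted p of 0.0229, and without HFHC replicates 1, 2 and 3 or Chow replicates 7 and 9 in turn it was 0.0775, 0.0648, 0.0506, 0.103 and 0.0904.

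Several abundant members were not called. Zfp445, a KRAB protein that keeps imprints methylated, had 126, 126 and 149 CPM in HFHC and 162, 142 and 177 in Chow, and its log2 fold change of -0.27 ± 0.11 had an adjusted p of 0.175. The Zfp445 diets overlapped, since HFHC replicate 3 exceeded Chow replicate 8. Zfp91, a ubiquitin ligase, was at 122, 135 and 123 against 130, 142 and 125 CPM (-0.06 ± 0.08). Zfp706 was at 92.6, 91.2 and 103 against 95.9, 90.2 and 98.1 CPM (0.01 ± 0.08), and both genes overlapped between the diets.

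Zfp106, an RNA-binding protein, stood at -0.24 ± 0.09 (adjusted p = 0.158), with 26.1% of its exonic bases opposite another gene. Zfp207, which loads Bub3 in mitosis, stood at -0.17 ± 0.07 (adjusted p = 0.207) with every HFHC library below every Chow library, at 69.1, 69.1 and 72.9 against 75.8, 79.2 and 83.1 CPM. Zfp638, which acts in adipocyte differentiation, stood at -0.21 ± 0.10 (0.245). Zfp598, a sensor of collided ribosomes, stood at -0.07 ± 0.11 (0.773), and Zfp410, an activator of Chd4, at -0.12 ± 0.10 (0.525). Zfp143, a promoter-bound factor, stood at 0.09 ± 0.13 (0.747), and Zfp217, a partner of corepressor complexes, at -0.30 ± 0.19 (0.417). Zfp692, reported as a repressor of gluconeogenic genes, was at 4.39, 3.68 and 3.79 CPM in HFHC and 3.34, 4.82 and 3.77 in Chow (-0.01 ± 0.17, adjusted p = 0.981).

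The KRAB genes known for silencing retroviruses showed no call either. Zfp932, which silences endogenous retroviruses, had 9.54, 9.06 and 9.59 CPM in HFHC and 11.8, 10.2 and 11.6 in Chow. The groups did not overlap, but the log2 fold change of -0.25 ± 0.10 had an adjusted p of 0.181, and none of its values was whole. Zfp809, which silences murine leukemia proviruses, had 36.6, 20.8 and 37.2 CPM in HFHC and 28.8, 47.7 and 30.4 in Chow (-0.18 ± 0.24, adjusted p = 0.725). HFHC replicate 2 was the lowest and Chow replicate 8 the highest, so the spread within each diet exceeded the difference between them.

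The members nearest to a rise did not pass the test. Zfp9 had 2.13, 3.71 and 3.35 CPM in HFHC and 1.252, 2.32 and 1.77 in Chow, and its log2 fold change of 0.78 ± 0.27 had an adjusted p of 0.128. The Zfp9 groups overlapped, since HFHC replicate 1 lay under Chow replicate 8. Zfp446, Zfp213 and Zfp784 did not overlap between diets and stood at 0.39 ± 0.15, 0.38 ± 0.14 and 0.41 ± 0.16, with adjusted p values of 0.148, 0.151 and 0.167. Opposite another gene lay 56.6% of the exonic bases of Zfp213 and 94.8% of those of Zfp784, and the strand setting of the counting is not given. Zfp750, a factor of epidermal differentiation, stood at 0.37 ± 0.15 with an adjusted p of 0.171.

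A broad list of TRIM28 and H3K9 methylation silencing genes held 2 that were called lower, and neither Trim28 nor Setdb1 was called. Of its 28 tested genes, 2 were called lower (7.14%, against 3.3% of all tested genes) and none higher. The other 26 were not called, and the median over the 28 was -0.10. Trim28 itself had 46.1, 44.1 and 41.0 CPM in HFHC and 46.6, 48.1 and 40.8 in Chow, a log2 fold change of -0.05 ± 0.09 with an adjusted p of 0.809, and the diets overlapped. Setdb1 stood at -0.20 ± 0.09 (adjusted p = 0.219) and Dnmt3a, a DNA methyltransferase, at -0.50 ± 0.13 (0.0563).

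The 2 called lower were Atrx and Tasor. Atrx, a chromatin remodeller that deposits histone H3.3, had 75.5, 66.4 and 78.0 CPM in HFHC and 104, 91.5 and 104 in Chow, a log2 fold change of -0.45 ± 0.09 with an adjusted p of 0.0220. Tasor, a subunit of the HUSH silencing complex, had 42.1, 41.98 and 44.6 CPM in HFHC and 63.3, 52.1 and 59.5 in Chow, a log2 fold change of -0.44 ± 0.09 with an adjusted p of 0.0204. The groups did not overlap in either gene, but both calls were lost without HFHC replicate 1 (adjusted p of 0.0640 for Atrx and 0.0743 for Tasor), HFHC replicate 2 (0.0702 and 0.0675), Chow replicate 7 (0.0948 and 0.0923) or Chow replicate 9 (0.0807 and 0.0750). After correction for GC content and length, Atrx kept its call (0.0329) and Tasor, whose transcripts have 34.9% GC, did not (0.193).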

How the data were processed

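Liver RNA of 6 mice, 3 per diet, was sequenced. Per the labels' protocols, RNA was extracted with miRNeasy kits and rRNA-depleted libraries with the TruSeq stranded total RNA kit. Per the submitters' processing notes, STAR 2.7.3a, Partek 9 and mm10 were used. How genes were counted, with which strand setting and annotation, is not stated in those sources. The authors deposited estimated counts (expected counts) per gene, not normalized, of which 22.4% were not whole (tolerance 0.01). Among the members 220 were whole in all 6 libraries, 43 in none and 38 in some.

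Counts were rounded and filtered (filterByExpr, minimum count of 10), and the diets were compared over all 14896 remaining genes with edgeR 4.0.16 (TMM, quasi-likelihood F test, Benjamini-Hochberg adjustment, threshold 0.05) in R 4.3.3. The SE is the size of the log2 fold change over the root of F. The model had no covariate. Each p value sets the diet difference against the spread between these libraries within a diet, moderated over all tested genes. Libraries of a diet differed by more than sampling noise. Alternatives were other size factors and filters, DESeq2 1.42.0, limma-voom (limma 3.58.1), each library left out, the GC and length trend taken out, and narrower or wider members. The code was tested on simulated data.

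GC content and length are medians over a gene's GENCODE M21 transcripts, matched by coordinates for 299 members and by symbol for 2. C2H2 motifs and KRAB boxes were counted in translated coding sequences, a KRAB box being at least 9 of 13 conserved residues. Named genes were the 10 called members with the smallest p, the 5 smallest p in each direction, the 6 most abundant, a fixed list of known members, and the edges of the minimum. The members and all lists were chosen with earlier results of these data known; the classes by GC, by motif number and by level and the runs of neighbours were set after the values were seen. Levels between genes are compared per kb of exonic length.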

Additional observations from a re-analysis of the deposited data

How the results depend on the processing

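No member was called higher under any alternative. The count of members called lower, 21, was 34 with limma-voom and sample weights (5.3% of all tested genes), 9 when at least 1.5-fold was required, and 4 to 21 with each library left out. The remaining fits of the whole table, the GC and length correction aside, gave 17 to 21 (2.13% to 4.17% of all tested genes). In other sets of members it was 20 for symbols of Zfp and digits only and 21 at a minimum of 0.5 CPM. It was 17 among the 187 members of at least 5 CPM and 17 among the 220 with whole values. The median of the members, -0.16, was -0.13 with upper-quartile factors, -0.15 without a count filter, -0.15 with limma-voom and sample weights, -0.11 after correction for GC content and length, -0.14 in members with whole values, and -0.17 to -0.14 with each library left out. The 2 calls of the TRIM28 list were 3 with DESeq2 and 0 to 2 with each library left out. Among the named members, 8 that were not called changed sign under at least 1 setting. With 1 library left out, log2 fold changes ranged from -0.0117 to 0.17 for Zfp143, -0.0549 to 0.14 for Zfp36, -0.0868 to 0.17 for Zfp36l2, -0.13 to 0.047 for Zfp598, -0.12 to 0.16 for Zfp692, -0.0432 to 0.0464 for Zfp706, -0.31 to 0.10 for Zfp809 and -0.11 to 0.0002 for Zfp91. Zfp692 was also 0.0188 with upper-quartile factors, 0.0033 without a filter, 0.0007 with limma-voom and 0.0932 with sample weights. Zfp598 was 0.001 and Zfp706 -0.0268 with sample weights, and Zfp91 was 0.0077 after that correction. The cause was not tested. No paired analysis was possible because the diets share no replicate numbers. With 3 animals per diet, changes below those called may be missed. Values were not whole in any library for 43 members and in some libraries for 38. These may rest on reads divided between genes, but how genes were counted is not stated.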

Other observations

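Related zinc finger families of at least 1 CPM, outside the Zfp symbols, also had negative medians, and none of their members was called higher. Of 38 Zbtb genes, transcription factors with a BTB domain, 3 were called lower (7.89%, against 6.98% of the Zfp members). Their median log2 fold change was -0.17, against -0.16 in the Zfp members, and 31 were negative. Of 7 Zkscan genes 1 was called lower (14.3%, median -0.22), and of 8 Zscan genes none was called (median -0.15). A low median was thus not particular to the Zfp symbols. Genes with C2H2 motifs and a KRAB box under other names numbered 39, with none called, a median of -0.22 and 33 negative, and their median GC content was 40.2%. Over all tested genes 3.3% were called lower and 3.38% higher in edgeR's quasi-likelihood test. Protein-coding Zfp genes below 1 CPM numbered 61, of which 35 were tested, with none called, a median of -0.11 and 24 negative.

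Among 187 members of at least 5 CPM, the median SD within a diet was 0.13 on the log2 scale (pseudocount 0.5). The widest were Zfp970 at 0.45, Zfp809 at 0.43 and Zfp395 at 0.31. Zfp970 had 15.4, 11.8 and 26.9 CPM in HFHC and 24.8, 29.3 and 34.2 in Chow, and none of its values was whole. Resf1, which acts in retroelement silencing with SETDB1 and was chosen after its values were seen, had 38.9, 15.8 and 41.9 CPM in HFHC and 44.2, 67.9 and 42.6 in Chow. Its lowest and highest libraries, HFHC replicate 2 and Chow replicate 8, were those of Zfp809, and its log2 fold change of -0.68 ± 0.32 had an adjusted p of 0.245. Among nuclear noncoding RNAs, Malat1 stood at -0.10 ± 0.14 (adjusted p = 0.736) and Neat1 at 0.78 ± 0.34 (adjusted p = 0.218).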
